A study of Mus musculus with 36 samples.

Results

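Hepatic transporters that move xenobiotics and their conjugates across the membranes of the liver cell were described at the mRNA level in 36 male adult mice of strain C57BL/6J per the labels; the study's methods name the substrain C57BL/6JOlaHsd. The 10 genes were taken by name: the efflux transporters Abcc2, Abcc3, Abcc4, Abcc6, Abcb1a and Abcg2, and the uptake transporters Slco1a1, Slco1a4, Slco1b2 and Slco2b1. They are 10 of 19750 genes named on the array and are covered by 14 of its 41174 probes, found by the gene name in the scanner files or by the current symbol of the probe's accession. The authors' value table keeps 12 of these probes, for 9 of the 10 genes; Abcb1a is not in it. All mice first received a mild-high-fat diet (30 energy percent fat) during an adaptation of 3 weeks per the labels. In the t=0 group, 12 mice were killed directly after this adaptation, without quercetin. In the HF group, which is the control group, 12 mice stayed on the diet for 12 weeks, and in the HF-Q group 12 mice received it for 12 weeks with 0.33% (w/w) quercetin, a dietary flavonol. All mice were fasted for at least 2 hours before they were killed. HF and t=0 mice differ in the time on the diet and in age, and these cannot be told apart.

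Conjugated flavonoids, bile acids, bilirubin glucuronides and many drugs are anions that need transporters to cross membranes. Organic anion transporting polypeptides of the Slco family take such compounds up from the blood at the sinusoidal side of the hepatocyte. ATP-binding cassette transporters use ATP to export them, either across the canalicular membrane into bile (Abcc2, Abcg2, Abcb1a) or back to the blood (Abcc3, Abcc4). Several of these genes are known targets of the xenobiotic sensors Car (Nr1i3), Pxr (Nr1i2), Ahr and Nrf2 (Nfe2l2), and the liver is a main site where quercetin is glucuronidated, sulfated and methylated.

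The promoter sequence is shown for Abcc2, the transporter that passed the test in both HF-Q versus HF and HF versus t=0, and for Slco1b2, whose correlation with Abcc2 had the highest r among the other transporters in both the t=0 and the HF-Q mice. Each run is the 250 bases before the annotated start, on the strand of the gene, from RefSeq in build GRCm38.p6; Abcc2 lies at chr19:43782058-43782307 and Slco1b2 at chr6:141629268-141629517, both on the plus strand. Capitals mark the motifs that were searched on both strands.
Abcc2: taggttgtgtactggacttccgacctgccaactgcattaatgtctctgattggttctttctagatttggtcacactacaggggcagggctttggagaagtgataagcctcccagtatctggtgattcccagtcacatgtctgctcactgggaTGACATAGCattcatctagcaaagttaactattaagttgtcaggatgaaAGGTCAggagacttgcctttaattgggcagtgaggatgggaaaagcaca
Slco1b2: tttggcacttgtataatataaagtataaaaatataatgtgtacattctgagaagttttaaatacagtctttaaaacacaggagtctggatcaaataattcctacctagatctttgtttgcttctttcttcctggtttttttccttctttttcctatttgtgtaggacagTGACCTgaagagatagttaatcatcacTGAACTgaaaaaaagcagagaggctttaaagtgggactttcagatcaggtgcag

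The nuclear receptor half-site AGGTCA occurred once in the Abcc2 window, 49 to 44 bases before the start, and once on the opposite strand in the Slco1b2 window, 81 to 76 bases before it. The antioxidant response element pattern TGACNNNGC occurred in the Abcc2 window 98 to 90 bases before the start, and the half-site AGTTCA on the opposite strand of the Slco1b2 window 54 to 49 bases before it. The capitals of different motifs do not overlap in either window. Of all 32851 windows of this length, 14.0% hold AGGTCA, 11.8% AGTTCA, 10.2% TGACNNNGC, 28.2% GCGTG, the core of the Ahr response element, and 0.371% the HNF1 motif. RefSeq windows were matched for 8 of the 10 genes, all but Abcc3 and Abcc6, 13 windows in all. AGGTCA was found in 4 of these genes, AGTTCA in 3, TGACNNNGC in 2, GCGTG in 1, and the HNF1 motif in 0. A match of letters is a description and does not show that a factor binds.

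A value below is the authors' log2 value of the mouse (Cy5) relative to the reference pool of all livers (Cy3), put back on the scale of the probe's own brightness. Differences between groups can therefore be read for each probe, while levels of different probes cannot be set against each other. The arrays resembled each other in signal, apart from 1 HF-Q array, replicate 2, on which 96.7% of the spots were well above background in Cy5, against 56.4% to 67.4% on the other arrays. Another array, HF replicate 5, had the widest deviations from its group mean, with an SD over probes of 0.50 against a group median of 0.19. Neither array was the lowest or highest of its group for Abcc2 or for the brighter probe of Abcc3. HF replicate 5 (12.0652) was, however, almost level with the lowest HF mouse (12.0648) for Abcc2. Without it the log2 fold change of Abcc2 was 0.24 in HF-Q versus HF and -0.25 in HF versus t=0. With it these were 0.26 and -0.27. All 5 hepatocyte markers on the array were well above background on most arrays, and their summed Cy5 signal over background had medians of 18389 in t=0, 19628 in HF and 17627 in HF-Q. In liver tissue, fewer cells of a type and less RNA per cell cannot be told apart.

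After 12 weeks of quercetin, the efflux transporters Abcc2 and Abcc3 were higher than in the control mice, by 1.20-fold and 1.25-fold, and none of the 4 uptake transporters passed the test. These were 2 of the 9 transporters in the table, both higher, where 2.36% of all 21781 probes passed the same test (limma, adjusted p under 0.05) 1.49% as higher and 0.863% as lower. At an unadjusted p under 0.05 they were 3 of 9, with Abcc6 added, where 15.4% of all probes were. The median log2 fold change over the 9 transporters was 0.08, beside 0.01 over all probes, and 7 of 9 had a positive value.

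Abcc2 (Mrp2), which exports glucuronide and glutathione conjugates into bile, was measured by 1 probe (A_51_P277745, chr19:43890900-43890959, build mm8, plus strand). Its lowest, median and highest values were 12.06, 12.29 and 12.54 in HF and 12.37, 12.54 and 12.78 in HF-Q. All 12 HF-Q mice lay above the HF median and 6 lay above the highest HF mouse, so the groups overlapped in part. Abcc2 rose by 0.26 on the log2 scale, with a 95% confidence interval from 0.13 to 0.39 (adjusted p = 0.0251, limma). The 9 slides each carried mice of both groups, and within slides the difference was positive on 8 of 9, with a median of 0.28.

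Abcc3 (Mrp3), which returns glucuronides from the hepatocyte to the blood, was measured by 2 probes. The brighter probe (A_51_P449878, chr11:94159447-94159506, mm8, minus strand) had a lowest, median and highest value of 11.79, 12.19 and 12.54 in HF and of 12.25, 12.50 and 12.69 in HF-Q. Again all 12 HF-Q mice lay above the HF median, 5 of them above every HF mouse. Abcc3 rose by 0.32 on this scale, with an interval from 0.17 to 0.46 (adjusted p = 0.0156, limma), and the difference was positive on 9 of 9 slides. The dimmer probe (A_52_P622067, chr11:94180461-94180520, mm8, minus strand), whose Cy5 signal was only 3.15 times background in HF and 4.27 times in HF-Q on average, gave 6.74, 7.21 and 7.47 in HF and 7.40, 7.63 and 7.87 in HF-Q. For this probe 11 of 12 HF-Q mice exceeded the highest HF mouse. It rose by 0.41, with a standard error of 0.07 (adjusted p = 0.0013, limma), again on 9 of 9 slides. The authors' values carry no background subtraction, and on background-corrected scanner values the difference of this probe was 0.21 (adjusted p = 0.0195), while that of the brighter probe was 0.35 (adjusted p = 0.00232).

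Both calls were lost when the scanner signals were centred on the median of each array without a loess curve, where the log2 fold changes stayed at 0.24 for Abcc2 (adjusted p = 0.449) and 0.29 for Abcc3 (adjusted p = 0.403). The median over all probes moved by -0.09 with this centring. Relative to that shift the values were 0.32 for Abcc2 and 0.38 for Abcc3, with no test of these. The call of Abcc3 was also lost with all arrays in one fit (adjusted p = 0.0588). Over the 13 alternatives run, the adjusted p of Abcc2 was at most 0.0483 in the 12 that kept its call.

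**Figure D1:**
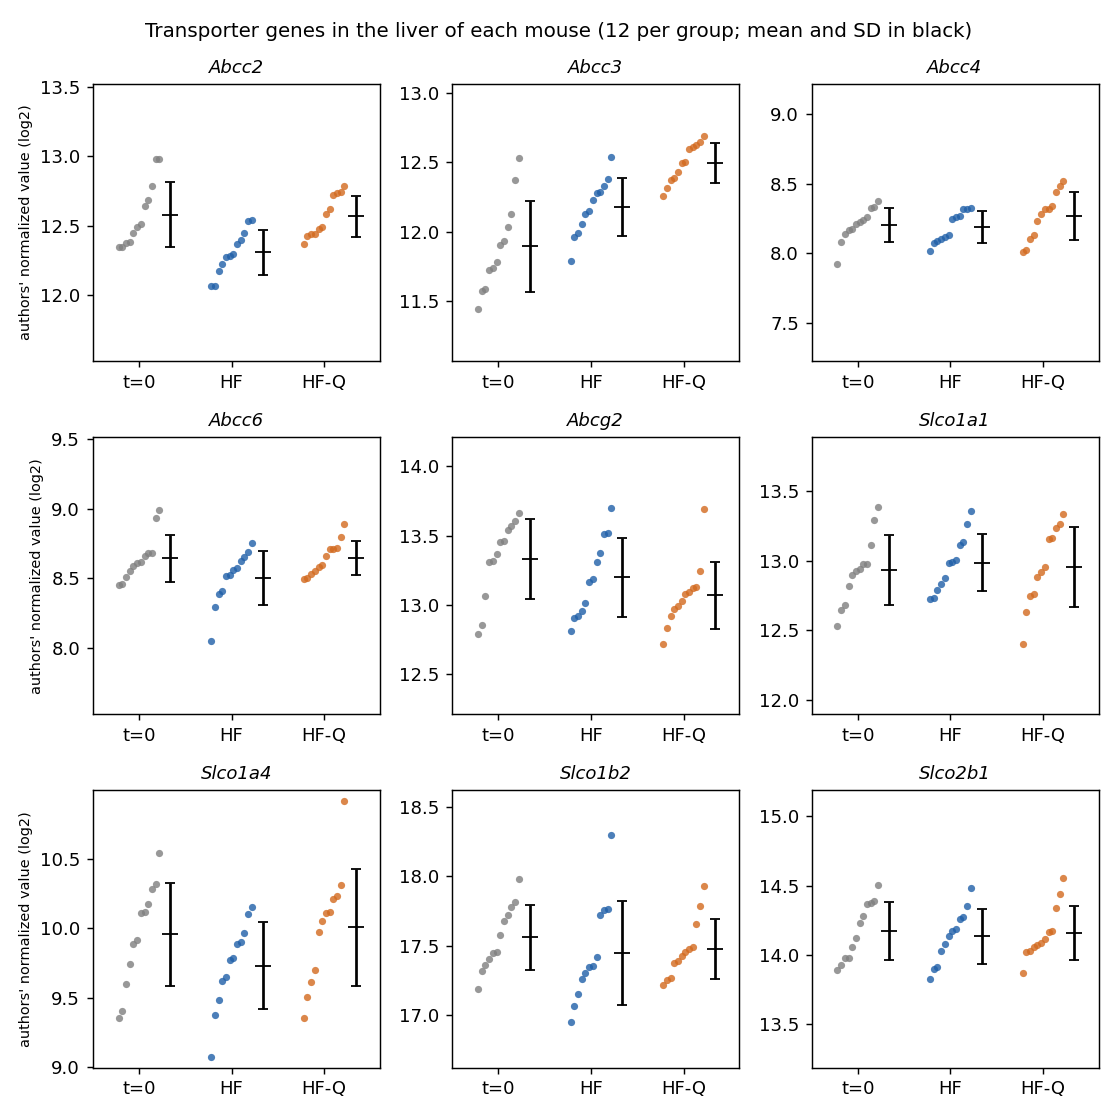
Value of each transporter gene (log2, brightest probe, authors' normalized values) in each mouse, by group of 12 mice; dots are mice sorted by value within a group, and the black bar is the mean with its SD. Every panel spans 2 log2 units. All HF-Q mice lie above the HF median for Abcc2 and Abcc3, while the groups of the other 7 genes lie across each other.

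The other efflux transporters in the table did not pass the test in HF-Q versus HF. Abcg2 (Bcrp), a canalicular transporter of sulfated conjugates, had values of 12.81, 13.18 and 13.70 (lowest, median, highest) in HF and of 12.72, 13.05 and 13.69 in HF-Q. Only 2 HF-Q mice lay above the HF median, and the log2 fold change was -0.13 with a 95% confidence interval from -0.34 to 0.08 (adjusted p = 0.561). The other probe of Abcg2 gave -0.10 (adjusted p = 0.67). Abcc6 (Mrp6), which takes part in the release of ATP from hepatocytes, had a log2 fold change of 0.14 with an interval from 0.01 to 0.28 that excludes 0, but its adjusted p was 0.301. Abcc4 (Mrp4), which exports bile acids and sulfates to the blood, had values of 8.02 to 8.33 in HF and 8.01 to 8.52 in HF-Q, with 4 HF-Q mice above and 1 below all HF mice. Its log2 fold change was 0.08 (interval from -0.05 to 0.20), and it turned to -0.08 with median centring. The median over all probes moved by -0.09 in that setting, and relative to this shift Abcc4 had 0.004.

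Abcb1a (P-glycoprotein), which exports hydrophobic drugs, was close to the background. Its median Cy5 signal over background was 1.40 in t=0, 1.51 in HF and 1.61 in HF-Q, and the probe was well above background on 1, 1 and 5 of 12 arrays. On the scanner values of all probes its log2 fold change in HF-Q versus HF was 0.03 (adjusted p = 0.885). A second probe of Abcc4 was equally dim, with median ratios of 1.38 to 1.42, and it is also absent from the table. At this signal a change of Abcb1a could not be measured well.

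Among the uptake transporters, Slco1a4 (Oatp1a4), which takes up digoxin and bile acids, had the largest point estimate and the widest spread. Its values ran from 9.07 to 10.16 in HF, with a median of 9.78, and from 9.35 to 10.92 in HF-Q, with a median of 10.08. Of the HF-Q mice 4 lay above every HF mouse, while replicate 2 of HF-Q, the array with the high share of spots above background, was the lowest of its group. The log2 fold change was 0.28 with an interval from -0.01 to 0.57 (adjusted p = 0.349), and 0.34 without that array (adjusted p = 0.241).

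Slco1b2 (Oatp1b2), a liver-specific carrier of bilirubin and statins, had values of 16.95 to 18.29 in HF and 17.22 to 17.93 in HF-Q, and its log2 fold change was 0.03 (interval from -0.21 to 0.27). Without HF replicate 5 this value was -0.01. Slco1a1 (Oatp1a1), a male-predominant carrier of steroid conjugates, gave -0.03 with its brighter and 0.04 with its dimmer probe, with intervals from -0.23 to 0.17 and from -0.13 to 0.20. The sign of the brighter probe turned under 5 of the 13 alternatives, the highest of them 0.01; HF replicate 5 was the lowest HF mouse with both probes. Slco2b1 (Oatp2b1), a broad carrier of sulfated compounds, gave 0.03 (interval from -0.13 to 0.18). The upper ends of the intervals of Slco1a1 and Slco2b1 lie below the point estimates of Abcc2 (0.26) and Abcc3 (0.32). They lie above the lower end of the interval of Abcc2 (0.13), and the genes were not compared with each other by a test. The intervals do not show that Slco1a1 and Slco2b1 were unaffected.

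**Figure D2:**
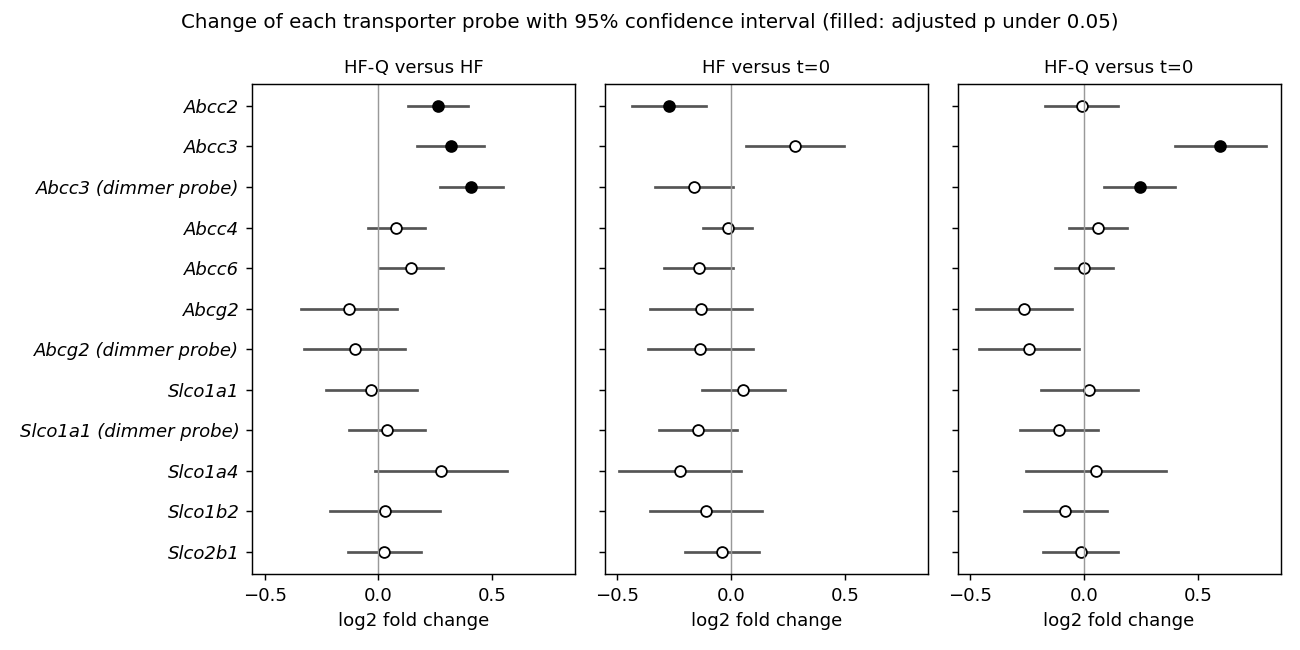
Log2 fold change of each of the 12 transporter probes in the authors' table in the 3 comparisons, with its 95% confidence interval; filled circles passed the test (adjusted p under 0.05). Abcc2 lies at 0.26 in HF-Q versus HF and at -0.27 in HF versus t=0, and the brighter probe of Abcc3 lies at 0.32 and 0.28.

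During the 12 weeks on the diet without quercetin, Abcc2 fell and was the only one of the 9 transporters that passed the test, where 21.3% of all probes passed it, 10.9% as higher and 10.4% as lower. At an unadjusted p under 0.05 Abcc3 was added, 2 of 9, where 35.5% of all probes were. The median over the 9 transporters was -0.11, beside 0.00 over all probes, and 7 of 9 were negative. Abcc2 had values of 12.34, 12.50 and 12.98 (lowest, median, highest) in t=0, and 7 of 12 HF mice lay below the lowest t=0 mouse. It fell by 0.27 on the log2 scale, to 0.827 of its level, with a standard error of 0.08 (adjusted p = 0.0153, limma). The difference was negative on 8 of 9 slides. With median centring without loess it was -0.15 (adjusted p = 0.44), and in the other 10 alternatives it passed.

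Between HF-Q and t=0, Abcc2 differed by less than the spread between mice, with a log2 fold change of -0.01 and an interval from -0.17 to 0.15. The comparisons of HF with either other group share the 12 HF mice, so the fall and the rise of Abcc2 are not independent of each other. In HF-Q versus t=0, Abcc3 alone of the 9 transporters passed the test, where 11.9% of all probes passed it, 6.62% as higher and 5.3% as lower. At an unadjusted p under 0.05 Abcg2 was added, 2 of 9, where 26.5% of all probes were.

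The 2 probes of Abcc3 differed in HF versus t=0. The brighter probe had values of 11.44, 11.84 and 12.53 in t=0 and a difference of 0.28 in HF, with an interval from 0.07 to 0.50 (adjusted p = 0.0557, limma), and 11 of 12 HF mice lay above the t=0 median. The dimmer probe had values of 6.97, 7.33 and 7.88 in t=0 and a difference of -0.16 in HF, with an interval from -0.34 to 0.01 (adjusted p = 0.157), and 3 of 12 HF mice lay above the t=0 median. The difference between the probes, taken in each mouse, was 0.45 larger in HF than in t=0 (permutation test with 100000 resamples, two-sided, p = 4e-05, adjusted p = 0.00036 over 9 such comparisons; this test was chosen after the values were seen). In HF-Q versus HF the probes did not differ beyond the spread, with a difference of -0.09 (permutation p = 0.36, adjusted p = 0.54). In HF-Q versus t=0 they did, with a difference of 0.35 (permutation p = 0.00012, adjusted p = 0.00054). On background-corrected scanner values of all probes, HF versus t=0 gave 0.23 for the brighter probe (limma, adjusted p = 0.175). The dimmer probe gave -0.08 (limma, adjusted p = 0.526). Neither probe passed in HF versus t=0 with the authors' values. The sign of the estimate in HF versus t=0 and its size in HF-Q versus t=0 thus depended on the probe, and what sets the probes apart was not tested.

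Against t=0, HF-Q was 1.51-fold higher with the brighter Abcc3 probe (0.60 on the log2 scale, adjusted p = 0.000272) and by 0.24 with the dimmer one (adjusted p = 0.0357), and all 12 HF-Q mice lay above the t=0 median with either probe. The brighter probe passed the test in all 12 alternatives. For the dimmer probe, on background-corrected scanner values, the difference was 0.13 and did not pass (adjusted p = 0.256).

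**Figure D3:**
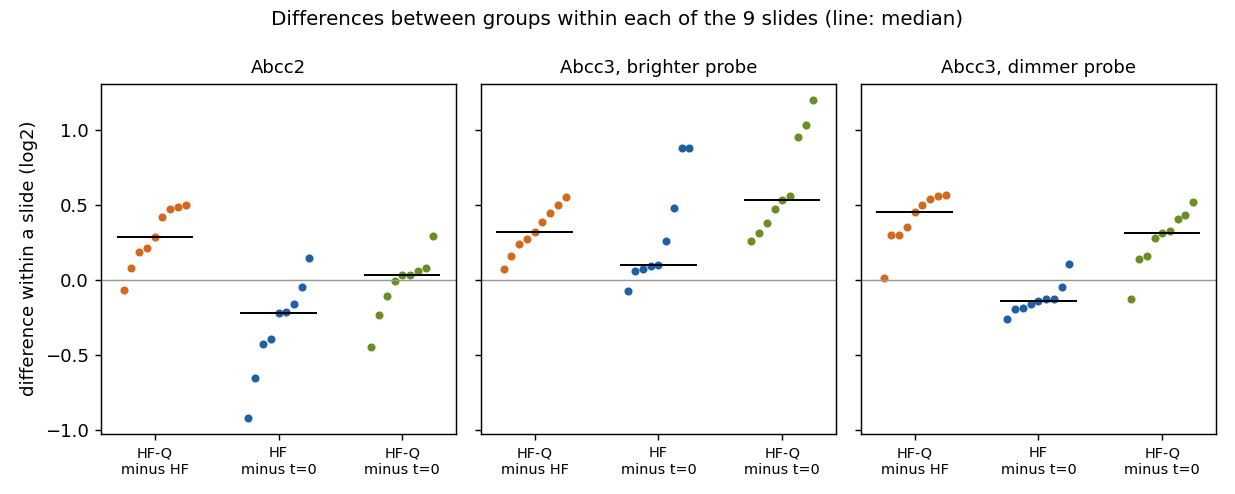
Differences between group means within each of the 9 slides (log2, y axis) for Abcc2 and both probes of Abcc3; each dot is 1 slide and the line is the median over slides. HF-Q minus HF is above 0 on 9 of 9 slides with both Abcc3 probes and on 8 of 9 with Abcc2, while HF minus t=0 has opposite medians with the brighter and the dimmer Abcc3 probe, 0.10 and -0.14.

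The other transporters did not pass in either comparison with t=0. Abcg2 had its lowest point estimate in HF-Q versus t=0, with -0.26 and an interval from -0.47 to -0.05 (adjusted p = 0.092) and 1 of 12 HF-Q mice above the t=0 median. Its other probe gave -0.24 (adjusted p = 0.145), and the difference was negative on 8 of 9 slides with both probes. Abcg2 passed in 2 of 12 alternatives, with Feature Extraction's processed signals (-0.29, adjusted p = 0.0438) and with quantile normalization (-0.29, adjusted p = 0.0489). Slco1a1 also had probes that differed between HF and t=0, with 0.05 for the brighter and -0.15 for the dimmer probe, neither of which passed. Taken in each mouse, the difference between these probes was 0.20 larger in HF (permutation p = 0.0017, adjusted p = 0.0051); it was 0.13 larger in HF-Q than in t=0 (permutation p = 0.013, adjusted p = 0.029) and differed by -0.07 in HF-Q versus HF (permutation p = 0.21). Slco1a4 had -0.22, Slco1b2 -0.11, Abcc6 -0.14, Slco2b1 -0.04 and Abcc4 -0.02 as log2 fold changes in HF versus t=0, with adjusted p-values from 0.162 to 0.857.

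Correlations between the 9 transporters were computed over the 12 mice of each group, 108 relations in all. None passed after Benjamini-Hochberg adjustment (permutation test with 100000 resamples, two-sided), while 20 had an unadjusted p under 0.05. The highest r was that of Abcc2 and Abcc3 in HF (Pearson r = 0.82, permutation p = 0.00094, adjusted p = 0.0518; Spearman rho = 0.84, permutation p = 0.0009, adjusted p = 0.0961). It was 0.71 without the 2 mice farthest from the median of Abcc2 and 0.82 without HF replicate 5. In the other groups the same pair had r = 0.03 in t=0 (permutation p = 0.93; rho = -0.01, permutation p = 0.991) and r = 0.08 in HF-Q (permutation p = 0.804; rho = 0.01, permutation p = 0.975). Abcc2 and Slco1b2 had r = 0.80 in t=0 (permutation p = 0.00158, adjusted p = 0.0569; rho = 0.74, permutation p = 0.00772, adjusted p = 0.15) and 0.74 in HF-Q (permutation p = 0.00466, adjusted p = 0.0719; rho = 0.62, permutation p = 0.0336, adjusted p = 0.343). In HF this pair had r = 0.57 (permutation p = 0.052, adjusted p = 0.255; rho = 0.47, permutation p = 0.128, adjusted p = 0.461). Without the 2 mice farthest from the median of Abcc2 the values of r were 0.61 in t=0, 0.55 in HF-Q and 0.18 in HF.

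Over the deviations of all 36 mice from their group means, the genes whose pattern was most like that of Abcc2 were Dpm1 (r = 0.80), Gas5 (r = 0.77) and Jade1 (r = 0.77). For Abcc3 they were Ddx25 (r = 0.64), Trim55 (r = 0.64) and Erbb4 (r = 0.60). Without HF replicate 5 and HF-Q replicate 2 these correlations lay between 0.59 and 0.81. They are descriptions over arrays that share a reference pool, with no test.

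The genes around the transporters were grouped in lists. These lists were chosen with earlier results of these data known, so their counts beside the share of all probes are descriptions. In HF-Q versus HF, 0 of the 12 other uptake and 0 of the 10 other efflux transporters in the table passed the limma test. Their medians were 0.05 and -0.06. Of all probes 2.36% passed, so a count of 0 in lists this small is near that share. At an unadjusted p under 0.05 they were 4 and 2, where 15.4% of all probes were. In HF versus t=0, where 21.3% of all probes were called, Slco3a1 (0.49) and Slco2a1 (0.27), both carriers of prostaglandins, rose, and Slc22a7 (-0.55), the organic anion transporter Oat2, and Slc47a1 (-0.29), which exports organic cations, fell. The only other efflux gene that passed was Atp8b1 (0.25), a lipid flippase of the canalicular membrane. Slc47a1 no longer passed with the slide as a block, with the methods' t-test, with median centring and without HF replicate 5.

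Of the 14 sensors and scaffold genes, Nr1i3 alone passed in HF-Q versus HF, where 2.36% of all probes passed. In HF versus t=0, 3 of the 14 passed as higher and 1 as lower, where 10.9% and 10.4% of all probes did. In that comparison 7 had a positive and 7 a negative value, with a median of 0.02. Nr1i3, which encodes the constitutive androstane receptor Car, rose by 0.46 with quercetin (adjusted p = 0.00231), and it fell by 0.27 in HF versus t=0 (adjusted p = 0.022). These comparisons share the HF mice. The rise of Car with quercetin had already been reported by the paper from these arrays. In the paper's RT-qPCR, Car went in the same direction without reaching significance. The fall was not called with the slide as a block or with median centring, and the rise was not called with median centring. Nr1i2 (Pxr) had -0.04, Ahr 0.09 and Nfe2l2 (Nrf2) -0.20 in HF-Q versus HF, with adjusted p-values of 0.882, 0.771 and 0.283. In HF versus t=0, Nfe2l2 rose by 0.31 (adjusted p = 0.00561), as did Keap1 (0.31), its cytosolic inhibitor, and Ezr (0.22), a membrane linker, while Nr1i2 had 0.13 and Ahr -0.02. In HF-Q versus t=0 none of these 4 sensors passed; their log2 fold changes were 0.19 for Nr1i3, 0.09 for Nr1i2, 0.07 for Ahr and 0.12 for Nfe2l2.

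Of the 20 Car and Pxr target genes in the table, 6 rose and 0 fell with quercetin, where 1.49% of all probes were called higher and 0.863% lower, with a list median of 0.29 beside 0.01 over all probes. They include Por (0.98), the electron donor of the cytochromes P450, Cyp2b9 (0.91), Cyp2a5 (0.87) and Cyp2a4 (0.80), all P450 enzymes. The paper had already reported the rise of Por from these arrays. The list was chosen with earlier results known, so its count is a description and no test. Cyp2a4 and Cyp2a5 are near-identical copies whose probes may share signal, and Cyp2b9 was dim, with a Cy5 signal of 2.29 times background in HF. In HF versus t=0 the list was divided, with Cyp3a11 (0.59) and Gstm3 (0.39) higher and Por (-0.59) and Cyp2b9 (-0.49) lower, and a median of -0.03. The call of Cyp2b9 held in 4 of 13 alternatives with quercetin and in 4 of 11 in HF versus t=0.

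The 14 Nrf2 target genes in the table included 8 that rose and 0 that fell in HF versus t=0, where 10.9% of all probes were called higher and 10.4% lower, with a median of 0.34 beside 0.00 over all probes. Examples are Gstm1 (0.55), a glutathione transferase, Gclc (0.39), of glutathione synthesis, Cbr3 (0.39), a carbonyl reductase, and Txnrd1 (0.35), a thioredoxin reductase. With quercetin 2 of these 14 passed, where 2.36% of all probes did. They were Ephx1 (0.28), an epoxide hydrolase, and G6pdx (-0.33), which supplies NADPH, in opposite directions. These calls held in 7 and 4 of 13 alternatives, and that of Gclc in HF versus t=0 in 5 of 11. Of the 3 Ahr target genes in the table, Cyp1a2 fell in HF versus t=0 (-0.31). With quercetin 0 of the 3 passed, where 2.36% of all probes did. At an unadjusted p under 0.05 it was also 0, where 15.4% of all probes were.

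Of the 11 genes of flavonoid conjugation in the table, 0 passed in HF-Q versus HF, with a median of 0.11. Of all probes 2.36% passed there, so a count of 0 in a list this small is near that share. At an unadjusted p under 0.05 they were 3, where 15.4% of all probes were. In HF versus t=0, the sulfotransferase Sult1b1 (-0.72), the sulfate donor enzyme Papss2 (-0.66) and the glucuronosyltransferase Ugt2b1 (-0.57) fell together with 1 further gene, while Ugdh (0.33), which makes the glucuronide donor, rose. These are 5 of 11 genes, where 21.3% of all probes were called.

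**Figure D4:**
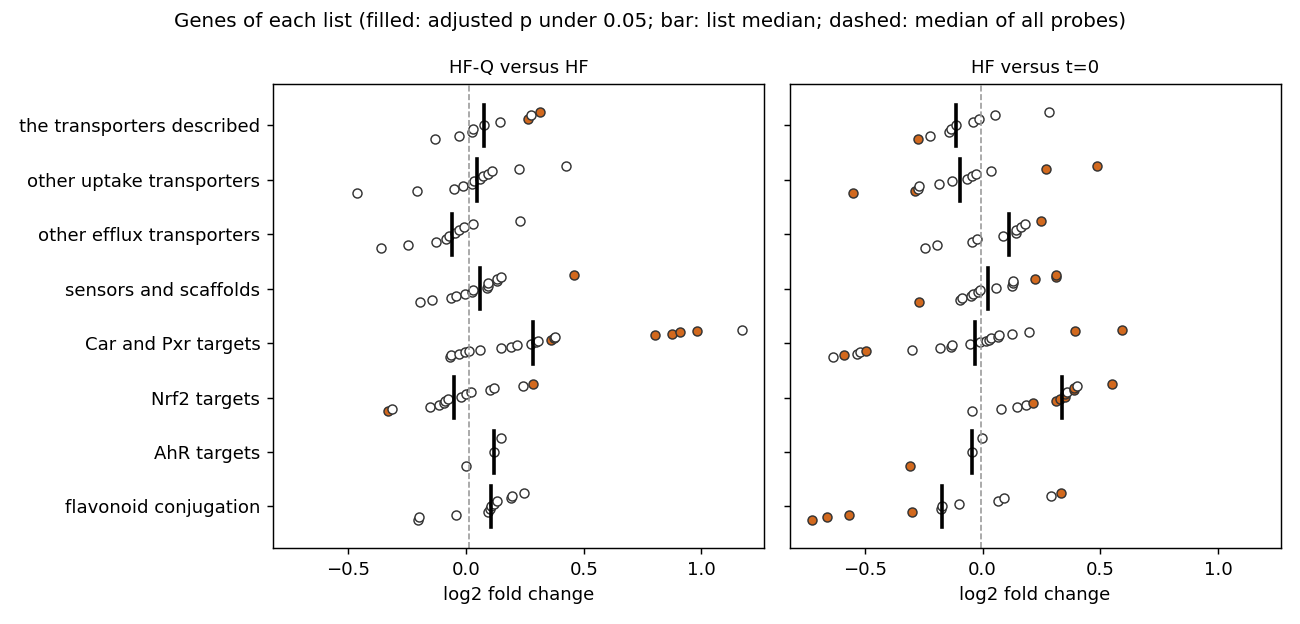
Log2 fold change (x axis) of the genes of each list at their brightest probe, in HF-Q versus HF and in HF versus t=0; filled circles passed the test, the thick bar is the list median and the dashed line the median of all probes. Filled circles among the transporters described are Abcc2 and Abcc3 with quercetin and Abcc2 in HF versus t=0, and the Car and Pxr targets have a median of 0.29 with quercetin. The lists were chosen with earlier results of these data known.

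Some markers of other cells passed the test in the same comparisons. Bile duct cells also express Abcc3. Among the 5 cholangiocyte markers Sox9 (0.64), Krt19 (0.42) and Krt7 (0.29) rose in HF versus t=0. In that comparison 10.9% of all probes were called higher. Sox9 fell (-0.60) in HF-Q versus HF, where 0.863% of all probes were called lower and the other 4 markers did not pass. The summed Cy5 signal of the cholangiocyte markers over background had medians of 22.9 in t=0, 35.4 in HF and 29.3 in HF-Q. It ranged from 17.9 to 33.1 in t=0, 28.2 to 56.1 in HF and 20.3 to 95.4 in HF-Q. Of these 5 markers, 1 was not well above background on most arrays. Their part in the values of Abcc3 was not tested. Of the 6 Kupffer cell and 5 stellate cell markers 0 passed in either comparison. Of all probes, 21.3% passed in HF versus t=0 and 2.36% in HF-Q versus HF. All 6 Kupffer cell markers were higher in HF versus t=0 (median 0.33), 3 of them at an unadjusted p under 0.05. In HF-Q versus HF 3 of them were higher and 3 lower. The summed signal of the Kupffer cell markers had medians of 458 in t=0, 688 in HF and 776 in HF-Q. It ranged from 318 to 1086 in t=0, 540 to 1463 in HF and 569 to 1044 in HF-Q. Of the 6 endothelial markers, Pecam1 rose with quercetin (0.38) and fell in HF versus t=0 (-0.34), at a Cy5 signal of 3.97 times background in HF. No other endothelial marker passed in these comparisons. With quercetin 4 of the 6 were lower (median -0.02), and in HF versus t=0 4 were higher (median 0.05). Of the 2 erythroid markers in the table, Hba-a1, a haemoglobin chain, rose in HF versus t=0 (0.93), while the other was lower and did not pass. Of the 5 hepatocyte markers in the table, Cps1, a urea cycle enzyme, alone passed in that comparison and fell (-0.32). There 3 hepatocyte markers were higher and 2 lower (median 0.03), and 10.4% of all probes were called lower. Of the 10 male-predominant liver genes in the table, Elovl3, a fatty acid elongase, fell with quercetin (-1.53) and rose in HF versus t=0 (0.95, called in 5 of 11 alternatives). Selenbp2 fell in HF versus t=0 (-1.08), and no other gene of this list passed in these comparisons. With quercetin 9 of the 10 were lower and 1 higher (median -0.15). In HF versus t=0 7 were lower and 3 higher (median -0.14), so the rise of Elovl3 went against most of its list. The part of these markers in the values of the transporters was not tested either.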

How the data were processed

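Liver RNA of 36 mice was measured on 36 Agilent 4x44K two-colour arrays. Cy5 held the mouse and Cy3 the reference pool on every array. Groups and replicate numbers came from the labels, which describe individual mice. The deposited scanner files, made by the authors with Feature Extraction (10.5.1.1 per the labels), give the intensity of each spot and of its background. The authors' deposited value table holds log2 values of 23256 spots; per the methods, spots were kept whose average signal was 2 times background, and Cy5 was normalized against Cy3. Set against the scanner files, the values were the log2 ratio of Cy5 over Cy3 median intensity without background subtraction, with every array at the same median (8.961), plus a constant per spot close to the mean log2 Cy3 intensity (r = 0.9999). The largest deviation from this was 0.08.

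Spots of one probe were averaged (21781 probes). Each pair of groups entered its own limma model (lmFit and eBayes; 24 arrays, two-sided tests), with Benjamini-Hochberg adjustment over all 21781 probes and a threshold of 0.05. A gene is given by the brightest probe it has there. Of the 41174 probes, 24375 were named by accession, 8727 by the name in the file, and 8072 have no symbol. Positions are of build mm8 per the file headers. Alternatives were normexp-corrected scanner values (offset 50) with loess or median centring, Feature Extraction's processed signals, quantile normalization, other filters, slide or replicate blocks, the methods' t-test, all arrays in one fit, and fits without single arrays. Protein motifs were not searched. The genes described and the gene lists were chosen with earlier results of these data known. Named are the 10 transporters, the 4 sensors, in each other list at most 4 genes that passed in HF-Q versus HF and in HF versus t=0, and the 3 genes most like each transporter that passed with quercetin. The test was checked on simulated data for HF-Q versus HF on 21781 probes: of 67 probes changed by 0.25 it recovered 40.3%, of 67 changed by 0.5 88.1%, and of 66 changed by 1 100%. The number of arrays limits the precision. Used were R 4.3.3, limma 3.58.1, data.table (version 1.17.8), Python 3.11.15, numpy 2.4.6, scipy 1.17.1 and matplotlib 3.10.9.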

Additional observations from a re-analysis of the deposited data

How the results depend on the processing

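Of the alternatives, those without HF replicate 5 and with scanner loess values without HF-Q replicate 2 were chosen after seeing the data. The median over all probes moved by 0.101 with median centring in HF versus t=0, and by less than 0.1 under every other alternative and comparison. Relative to that shift, the values in HF versus t=0 with median centring were -0.25 for Abcc2, 0.30 for Abcc3, -0.03 for Abcc4, -0.09 for Slco1b2, -0.02 for Slco2b1 and -0.0009 for Ahr. For the transporters and other named genes, 797 of the 893 values under alternatives kept their direction and their side of the threshold, 64 lost their call, 5 gained one and 27 changed sign, all of these for values that had not passed; causes were not tested.

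With median centring of the scanner signals, 77 probes passed in HF-Q versus HF (32.5% of them higher, against 63.4% of the 513 in the authors' table), with 0 of the transporters by limma (1 at an unadjusted p under 0.05), and 396 in HF-Q versus t=0 (2596 in the authors' table); in HF versus t=0, 85.0% of calls were higher, against 51.3%. With the slide as a block, 210 probes passed in HF-Q versus HF, 73.8% of them higher, and both transporters were kept. With Feature Extraction's signals 43.8% of calls in HF-Q versus t=0 were higher, against 55.5%. With all arrays in one fit, 1 transporter passed in HF-Q versus HF and 2 in HF versus t=0, where Abcc3 joined Abcc2 (0.28, adjusted p = 0.0293). Without HF replicate 5 there were also 2 (Abcc3 0.30, adjusted p = 0.0471), and median centring gave 0.41 for Abcc3 (adjusted p = 0.026) while Abcc2 was lost. In HF-Q versus t=0, 2 transporters passed with Feature Extraction's signals and 2 with quantile normalization, Abcg2 being added.

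Changes of sign in HF-Q versus HF were, for Slco1a1, 0.00827 with scanner loess values with and without the filter, 0.00333 with quantile normalization, 0.0111 with the slide block and 0.00379 with loess values without HF-Q replicate 2; for Nr1i2, 0.00816 with loess values with and without the filter; for Abcc4, -0.0825 with median centring; and for Slco1b2, -0.00605 without HF replicate 5 (0.0307 without HF-Q replicate 2). In HF versus t=0 they were, with median centring, 0.0683 for Abcc4, 0.0149 for Slco1b2, 0.0850 for Slco2b1 and 0.0997 for Ahr; with quantile normalization 0.00117 for Abcc4 and -0.00409 for Slco1a1; and with the slide block 0.0139 for Ahr. In HF-Q versus t=0 they were, with median centring, 0.0890 for Abcc2, -0.0142 for Abcc4, 0.0339 for Slco1b2 and 0.0974 for Slco2b1; for Abcc4, -0.0248 with loess values with and without the filter, -0.0205 without HF-Q replicate 2, and -0.00505 with Feature Extraction's signals; -0.000759 for Slco1a1 with quantile normalization; and, without HF-Q replicate 2, 0.000874 for Abcc2 and -0.0126 for Abcc6.

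The replicate numbers were not used to pair the mice in the main fits. Same-numbered mice had a median correlation of deviations of -0.01, 0.06 and 0.03 in the 3 comparisons, and 3, 4 and 4 of 12 pairs exceeded 0.1. These correlations were not set against those of differently numbered mice, so they cannot show whether the numbers pair the mice. Without HF-Q replicate 2, 415 probes passed in HF-Q versus HF and 2761 in HF-Q versus t=0; without HF replicate 5, 543 passed in HF-Q versus HF and 4758 in HF versus t=0. With the replicate block, 360, 4636 and 2372 probes passed, against 513, 4645 and 2596 without it, and the transporters that passed were unchanged in number, 2, 1 and 1.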
